A study of Mus musculus with 31 samples.

Results

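*Ctla2a*, *Ctla2b*, *Adam12*, *Adra1b*, *Sorbs2*, *Glul*, *Fam46b*, *Phf15*, *Rnf169* and *M1ap* are 10 genes that were chosen by their measured values. The reason was that their counts were higher with the glucocorticoid (GC) clobetasol propionate in parental melanoma cells or tumors. They are 10 of the 39179 genes in the deposited count table, and all 10 entered each fit, *Ctla2b* in cultures only through its counts in parental cells. GC effects on the 10 genes in parental samples are therefore a description with no test. The same holds for every comparison of these genes that contains those samples. Their tests were made in samples with a knockout of the glucocorticoid receptor (GR KO), whose values the stated reason did not use. Earlier results of these data were known at the choice, so these tests may not be fully independent of it. Other genes were also tested in parental samples.

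Melanoma line 20967 was derived from C57BL/6 mice of genotype Nras+LSL-G12D;Tyr::CreERT2+/o, in which melanocytes can be made to express oncogenic Nras. Its GR KO derivative was made by CRISPR editing of *Nr3c1* and selection of single clones by Western blot, so that genotype and clone cannot be told apart. RNA was sequenced from the 3′ end of transcripts in 20 whole intradermal tumors of wild type C57BL/6 mice, whose host cells kept GR, and in 11 cultures. Parental control, parental GC, GR KO control and GR KO GC tumors numbered 5 per group. Control mice were given an emollient cream, and GC mice an ointment with 0.05% clobetasol propionate 3 times weekly. The age of the mice was not given in the sources used. Cultures were kept for 48 hours in DMSO or with GC, with 3 cultures in each group except parental GC, which had 2. Their clobetasol dose is 10 µM in the sample characteristics and 1 µM in the library names. Libraries held 15528066 to 26386770 counts in tumors and 14441166 to 22463188 in cultures. Levels are given in CPM, counts scaled to the size of each library, on 1 scale over all 31 libraries, on which 3 counts, taken as the floor, correspond to 0.108 to 0.216 CPM.

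GCs cross the cell membrane and bind GR in the cytoplasm. The bound receptor moves to the nucleus, where pairs of receptors dock on paired DNA elements and raise or lower transcription of genes nearby, while other receptors act by tethering to factors such as NF-κB. In skin, clobetasol propionate is among the most potent topical GCs and is used against inflammatory dermatoses.

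*Nr3c1*, which encodes GR, was read first as the targeted gene. Its level was 62.8, 57.6, 43.9, 55.9 and 50.5 CPM in parental control tumors and 20.3, 26.7, 31.2, 33.6 and 23.4 CPM in GR KO control tumors. Every GR KO control tumor was below every parental control tumor, with a log2 fold change of −1.02 (SE 0.24, adjusted p = 0.0313 by edgeR). In GC tumors the genotypes overlapped, at 42.4 ± 12.5 CPM (SD, n = 5) in parental and 41.0 ± 14.4 CPM in GR KO tumors. With GC *Nr3c1* had a log2 fold change of 0.64 (SE 0.24, adjusted p = 0.107 by edgeR) in GR KO and −0.36 (SE 0.24, adjusted p = 0.525 by edgeR) in parental tumors. DMSO cultures held 33.9, 30.6 and 36.3 CPM in parental cells and 25.8, 21.6 and 16.6 CPM in GR KO cells. Each GR KO culture was under each parental culture, although the log2 fold change of −0.67 (SE 0.22, adjusted p = 0.0840 by edgeR) did not pass the threshold of 0.05. A CRISPR edit can leave the 3′ end of the transcript in place, so these counts do not check the knockout.

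The melanoma label was compared with melanocyte markers. *Mitf*, the melanocyte master regulator, was the most abundant of 7 markers, at 26.0 to 41.8 CPM in the means of the tumor groups and 4.07 to 10.9 CPM in those of the cultures. *Tyr*, the rate-limiting enzyme of melanin synthesis, had no count in any library. *Sox10*, *Dct* and *Mlana* were at 0 in all 11 cultures, so that the pigment cell markers other than *Mitf* were absent or near the floor in the cultured line.

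Among parental cultures the 10 genes fell into groups by their response, given here as a description. *Adra1b*, *M1ap*, *Adam12*, *Ctla2a*, *Fam46b* and *Sorbs2* had log2 fold changes with GC of 2.52 to 3.00. *Ctla2b*, *Glul* and *Phf15* stood between 0.94 and 1.85, and *Rnf169* at −0.098 (SE 0.16), so 9 of 10 were positive. Of 12525 genes tested in cultures, 0.615% were differentially expressed genes (DEGs) with higher levels in this comparison and 0.263% with lower levels. Their total of 110 fell to between 31 and 78 with a culture left out. The DEG definition combined an adjusted p under 0.05 with a fold change of at least 1.5. In parental tumors 9 of 10 log2 fold changes were positive too, from 0.47 for *Ctla2b* to 1.61 for *Fam46b*, while *Sorbs2* had −0.41 (SE 0.23). There 0.433% of 15919 tested genes were DEGs with higher and 0.345% with lower levels, 124 in all and 60 to 178 with a tumor left out. The order of responses thus differed between cultures and tumors, with *Rnf169* at 1.47 (SE 0.20) in tumors and at the bottom in culture.

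**Figure D1:**
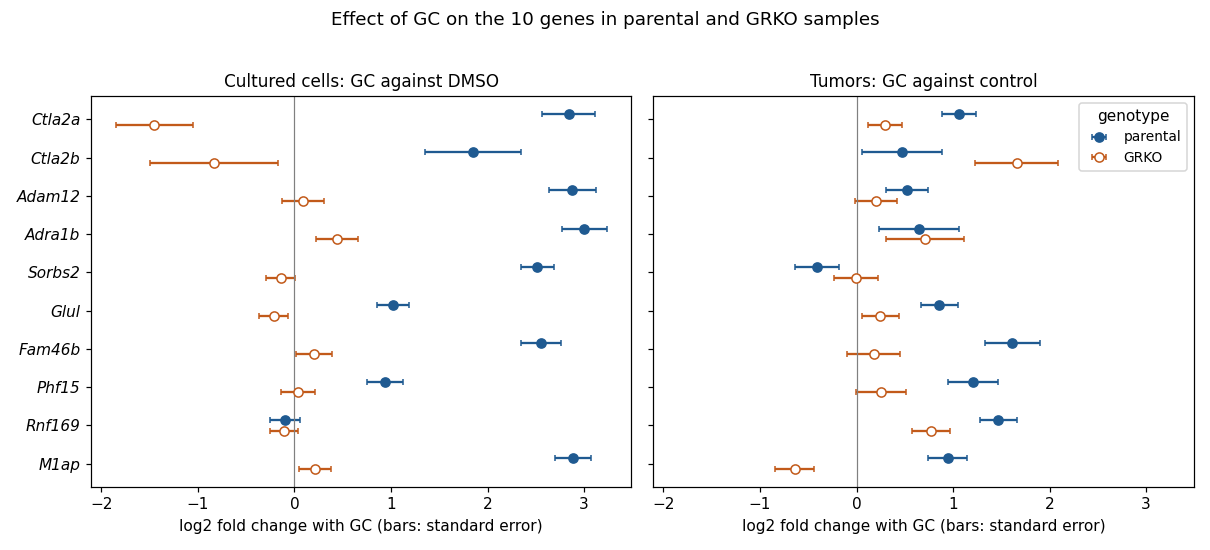
Log2 fold change with GC of the 10 genes in cultures (left) and tumors (right), for parental (filled) and GR KO (open) samples, with bars for the standard error. By edgeR 0 of 9 genes with enough counts were DEGs in GR KO cultures, and *Ctla2b* and *Rnf169* were in GR KO tumors.

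In GR KO cultures 0 of 9 genes were DEGs by edgeR, while *Ctla2b*, with 1 to 5 counts in each library, could not be called and is left out here. No gene of the 12525 tested was a DEG there (0%), also by DESeq2, and 237 (1.89%) were under 0.05 before adjustment. The log2 fold changes of the 9 genes ran from −1.45 for *Ctla2a* to 0.44 for *Adra1b*, 5 positive and 4 negative, with a median of 0.038 beside 0.019 over all tested genes. Their adjusted p by edgeR ran from 0.976 to 0.985. *Ctla2a* alone among the 9 had an unadjusted p under 0.05, at 0.00374 by edgeR. With 3 cultures per group an exact permutation test cannot give a p under 0.1, so none was made in cultures.

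GR KO tumors gave a mixed picture: *Ctla2b* and *Rnf169* were higher with GC by edgeR. DESeq2 also called *M1ap*, among its 1036 DEGs with lower levels. By edgeR *Ctla2b* and *Rnf169* were 2 of 10, where 2.71% of 15919 tested genes were DEGs with higher and 3.71% with lower levels. That background moved with single libraries, from 1022 DEGs in both directions to 429 without control tumor 1, 488 without control tumor 2, 2411 without control tumor 4, 546 without GC tumor 1, 303 without GC tumor 3 and 393 without GC tumor 5. Without control tumor 4 the balance turned, to 1305 higher and 1106 lower from 431 and 591. The 10 genes had a median log2 fold change of 0.25, beside 0.051 over all tested genes. Exact permutation tests, 5 against 5 tumors over 252 divisions, were made for the 10 genes with unadjusted p-values. *Rnf169* had p = 0.00794 in this exact test, the smallest the design allows, and *M1ap* and *Ctla2b* each had p = 0.0159. *Adra1b* had an exact p of 0.0317 and *Ctla2a* of 0.0794, and the other 5 genes had 0.254 or more. By edgeR 24.5% of all tested genes had an unadjusted p under 0.05 in this comparison, as had 3 of the 10. For the exact test no share over all genes is given.

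The cell makeup of GR KO tumors also differed with GC, as far as markers show it. In bulk tissue fewer cells of a type and less RNA per cell cannot be told apart. Among 7 T cell markers 3 were lower with GC, *Cd2*, *Lck* and *Cd3d*, and *Cd2* was the most abundant. Their summed level was 252.1, 204, 159.8, 337 and 146 CPM in control and 80.9, 121, 92.9, 60.1 and 55.2 CPM in GC tumors. All 5 GC tumors were below all 5 controls. Of 6 endothelial markers *Kdr* was lower and the most abundant, with sums of 101, 86.2, 106, 113 and 89.4 CPM in control and 52.1, 58.0, 50.5, 45.5 and 50.2 CPM in GC tumors. These groups did not overlap either. Of 6 fibroblast markers *Col1a2*, *Pdgfra* and *Col1a1* were higher, and *Col1a1* was the most abundant. Their sums were 2550.1, 2798, 3094, 4786 and 3453 CPM in control and 6916, 5237, 8174, 4543 and 7402 CPM in GC tumors, which overlapped in control tumor 4 and GC tumor 4. Of 5 keratinocyte markers *Krt10* and *Krt1*, of the upper epidermis, were higher and *Krt14*, of the basal layer and the most abundant, was lower. Keratinocyte sums were 2839, 3535, 2903, 1367 and 1753 CPM in control and 691, 869, 1309.8, 1486 and 1295 CPM in GC tumors, with control tumor 4 inside the GC range. Of 7 macrophage and monocyte markers *Mrc1* was higher, while *C1qa* was the most abundant. These sums were 7332, 5988, 4274, 5877 and 5367 CPM in control and 4001, 6072, 3423, 3791 and 3258 CPM in GC tumors, so that the groups overlapped. Of 5 skeletal muscle markers *Myh4* was lower, *Acta1* being the most abundant, with sums of 428, 423, 581, 558 and 289.6 CPM in control and 265, 345, 354, 242 and 246 CPM in GC tumors. NK cell, mast cell, adipocyte and melanocyte markers had no DEG in GR KO tumors by edgeR, and none of the tested markers in the 10 lists was a DEG in parental tumors or in either culture comparison. Sums in parental tumors nonetheless moved without overlap for 3 of the 10 lists. Endothelial sums were 48.3 to 73.1 CPM in control and 19.4 to 38.0 CPM with GC, fibroblast sums 3841 to 4405 and 5371 to 6807 CPM, and mast cell sums 120 to 204.1 and 204.6 to 310 CPM. The median log2 fold change over single markers was −0.85, 0.066 and 0.70, beside 0.0040 over all tested genes. Fibroblast sums were mostly *Col1a1*, with means of 2137 and 3134 CPM, so they do not show a shift of that list. No share of non-overlapping sums in other gene lists is given. None of the markers in the 10 lists was at 0 throughout the tumors except *Tyr*.

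Library quality also differed within GR KO tumors. Control tumors had counts for 13442, 14887, 15150, 16980 and 14335 genes, and GC tumors for 16799, 15623, 16769, 15224 and 16548. Fewer genes were thus seen in 4 of 5 controls than in any GC tumor, at total counts that overlapped. Control tumors 1 and 4 correlated least with their group, with a mean r of 0.934 and 0.936 across genes. The part of cell makeup and of these library differences in the results for *Ctla2b*, *Rnf169* and *M1ap* was not tested.

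*Ctla2a* and *Ctla2b* encode small cysteine protease inhibitors that resemble the propeptide of cathepsins and were found in activated T cells. In parental cultures *Ctla2a* had 17.3, 21.9 and 18.7 CPM in DMSO and 135 and 143 CPM with GC. Both GC cultures stood above all DMSO cultures, with a log2 fold change of 2.84 (SE 0.28). GR KO cultures had 1.24, 0.539 and 1.53 CPM in DMSO, from 23, 11 and 28 counts, and 0.585, 0.330 and 0.250 CPM with GC, from 10, 7 and 4 counts. *Ctla2a* was therefore low in every GR KO culture, with or without GC, and below every parental culture. The DMSO cultures differed by −4.14 (SE 0.31) on the log2 scale between GR KO and parental cells, which was not tested. With GC the GR KO cultures had a log2 fold change of −1.45 (SE 0.40, adjusted p = 0.976 by edgeR), and the groups overlapped.

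In tumors *Ctla2a* was far above its level in GR KO cultures in both genotypes. Parental tumors had 57.9, 46.2, 60.7, 57.1 and 59.9 CPM in control and 97.9, 122, 105, 154 and 111 CPM with GC. GR KO tumors had 61.4, 55.7, 67.3, 48.3 and 65.9 CPM in control and 73.6, 66.5, 73.5, 88.5 and 57.4 CPM with GC. Control tumors of both genotypes overlapped, all parental GC tumors were above their controls, and the GR KO groups overlapped. The log2 fold change with GC was 1.06 (SE 0.17) in parental and 0.30 (SE 0.17, adjusted p = 0.302 by edgeR) in GR KO tumors. GR KO control tumors exceeded GR KO DMSO cultures by 5.76 on the log2 scale (SE 0.29, adjusted p = 3.29e-16 by edgeR), a 54.2-fold difference. Across groups the order of means ran from parental GC cultures (139 ± 5.80 CPM, SD, n = 2) and parental GC tumors (118 ± 22.2), which overlapped, to GR KO GC tumors (71.9 ± 11.4), GR KO control tumors (59.7 ± 7.83) and parental control tumors (56.4 ± 5.84), which overlapped as neighbours. Parental DMSO cultures (19.3 ± 2.37) stood alone below them, and GR KO DMSO (1.10 ± 0.509) and GR KO GC cultures (0.388 ± 0.175) came last and overlapped.

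*Ctla2b* was the weaker signal of the pair and the only one that was a DEG in GR KO tumors. There it had 1.95, 0.525, 2.85, 4.90 and 2.01 CPM in control and 8.94, 5.59, 7.51, 4.55 and 10.8 CPM with GC. GC tumors were high in all but GC tumor 4, which was below control tumor 4. The log2 fold change was 1.66 (SE 0.43, adjusted p = 0.0249 by edgeR), with all 5 GC tumors above the mean of the controls. Its adjusted p was above 0.05 without control tumor 1 (0.0579, log2 fold change 1.59), GC tumor 1 (0.0599, 1.59), GC tumor 3 (0.0624, 1.67) or GC tumor 5 (0.0808, 1.47), and in a fit of the 2 groups alone (0.0931, 1.65). Parental tumors had 2.27, 4.41, 4.93, 5.38 and 5.55 CPM in control and 7.83, 4.38, 6.62, 4.72 and 7.95 CPM with GC, and these overlapped. Their log2 fold change was 0.47 (SE 0.42), and the parental minus GR KO difference of −1.19 (SE 0.60) was not tested.

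In culture *Ctla2b* was close to the floor in GR KO cells. Parental cells had 0.930, 1.82 and 1.26 CPM in DMSO and 6.24 and 3.52 CPM with GC, without overlap and with a log2 fold change of 1.85 (SE 0.50). Their estimate was 1.39 without GC culture 1 and 2.21 without GC culture 2. In GR KO cultures *Ctla2b* had 4, 5 and 3 counts in DMSO and 1, 2 and 3 counts with GC, so that no difference could be read at this depth. All 5 GR KO control tumors, at 0.525 to 4.90 CPM, were above all 3 GR KO DMSO cultures, at 0.164 to 0.245 CPM, and no fold change is given over so low a group. The means of *Ctla2b* ran from GR KO GC tumors (7.47 ± 2.51 CPM, SD, n = 5) over parental GC tumors (6.30 ± 1.68), parental GC cultures (4.88 ± 1.92), parental control tumors (4.51 ± 1.33) and GR KO control tumors (2.45 ± 1.60) to parental DMSO cultures (1.34 ± 0.450), each overlapping the next. Below them came GR KO DMSO (0.208 ± 0.0411) and GR KO GC cultures (0.113 ± 0.0665), which overlapped.

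*Ctla2a* and *Ctla2b* are neighbours, 36708 bp apart on the minus strand at chr13:60934155-60936625 and chr13:60895350-60897447 (GRCm38). Their longest coding transcripts, of 1373 and 1094 bases, aligned over 791 bases with 701 identical (88.6%). Of their 50-base windows 82 were shared, 6.19% of those of *Ctla2a* and 7.85% of those of *Ctla2b*, and reads from these could have been split or dropped, so the separate levels are uncertain. The GC effects of *Ctla2a* in GR KO tumors and GR KO cultures differed by 1.75 on the log2 scale (SE 0.39, adjusted p = 0.0763 by edgeR) in a comparison chosen after the data were seen. DESeq2 gave 1.68 with an adjusted p of 0.0280, so that this call depends on the tool. It also rests on low counts of *Ctla2a* in GR KO cultures, 11 to 28 in DMSO and 4 to 10 with GC. The GC effect was −1.45 in these cultures and 0.30 in GR KO tumors. *Ctla2b* is left out here, with cultures near the floor. By edgeR 0 of the other 9 genes were DEGs in this comparison, 0.0492% of 16273 tested genes were, and 3 of the 9 had an unadjusted p under 0.05, as had 2112 of all tested genes. DESeq2 made 1 member a DEG there, *Ctla2a*, among 185 genes that it called.

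The promoters of this pair are shown because both genes share a match to an arm of the paired GR element. Both were higher with GC in parental cultures, as were 9 of the 10 genes, which a choice on parental samples favors. In GR KO tumors only *Ctla2b* of the pair was a DEG by edgeR. The bases before the gene start aligned over 228 positions with 208 identical (91.2%). The hexamer AGAACA, read as TGTTCT on the other strand and forming a single arm of the paired GR element, occurred 211 bases before the start in 1 of 2 promoters of *Ctla2a* and 225 before that of *Ctla2b*, which has 1. Capitals mark it in the RefSeq sequences of build GRCm38.p6, both read on the minus strand, from chr13:60936626-60936875 and chr13:60897448-60897697.
Ctla2a: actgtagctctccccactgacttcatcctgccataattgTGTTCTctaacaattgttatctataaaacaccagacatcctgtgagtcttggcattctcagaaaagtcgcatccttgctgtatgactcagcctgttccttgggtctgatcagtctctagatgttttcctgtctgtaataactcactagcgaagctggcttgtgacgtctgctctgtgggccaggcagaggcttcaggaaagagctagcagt
Ctla2b: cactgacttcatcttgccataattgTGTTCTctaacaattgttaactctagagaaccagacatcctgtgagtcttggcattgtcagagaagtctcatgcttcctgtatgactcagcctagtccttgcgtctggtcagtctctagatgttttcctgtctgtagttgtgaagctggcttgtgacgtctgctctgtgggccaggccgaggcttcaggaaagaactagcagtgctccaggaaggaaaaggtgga

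Of the 10 genes 8 had RefSeq promoters, 12 in number, each with 250 bases before and 50 after the start. *Phf15* and *Adam12* had no entry. The hexamer, searched on both strands, was in 3 of the 8 genes, *Ctla2a*, *Ctla2b* and *Sorbs2*, beside 21.3% of 27025 genes. By promoter it was in 4 of 12, beside 19.0% of 32851 promoters of all genes. The promoters of *Ctla2a* and *Ctla2b* were 91.2% identical where aligned, so these genes are not separate occurrences. In *Sorbs2* the hexamer lay 247 and 215 bases before the starts of 2 of its 3 promoters. These sites are shown to compare their flanks with those of the *Ctla2* pair, both on the plus strand of GRCm38.p6, at chr8:45507538-45507558 and chr8:45661766-45661795.
Sorbs2 first start: cccAGAACActgggaaattaa
Sorbs2 last start: ctgtgcttgtgaAGAACAaacagtaacatt
The whole pair, GNACANNNTGTNC, was in 0 of 12 promoters and in 0.475% of all promoters. A match of letters describes the sequence and says nothing on binding.

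The cathepsins and cystatins, enzymes and inhibitors of the class that CTLA2 proteins act on, were read beside the pair. None of 12 tested genes was a DEG in either culture comparison by edgeR. In parental tumors 0 of 14 were higher and 1 lower, the lysosomal cathepsin *Ctsl*, with a log2 fold change of −1.06 (SE 0.25, adjusted p = 0.0457 by edgeR). In GR KO tumors 2 of 14 were lower, *Ctsw*, a cathepsin of cytotoxic lymphocytes, by −1.27 (SE 0.34, adjusted p = 0.0279 by edgeR) and *Ctsz* by −0.85 (SE 0.16, adjusted p = 0.00476 by edgeR). Their median log2 fold change in GR KO tumors was 0.38, beside 0.051 over all tested genes.

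*Adam12* encodes a membrane metalloproteinase with a disintegrin domain that sheds growth factors. Its parental cultures had 5.96 to 11.4 CPM in DMSO and 62.0 to 68.5 CPM with GC, with a log2 fold change of 2.88 (SE 0.25). GR KO cultures had 19.0 to 20.6 CPM in DMSO and 15.8 to 22.8 CPM with GC, which overlapped, with 0.085 (SE 0.22, adjusted p = 0.980 by edgeR). Without GC *Adam12* was thus higher in GR KO than in parental cultures, by 1.14 (SE 0.22) on the log2 scale, which was not tested. In tumors the response was smaller, 0.52 (SE 0.22) in parental and 0.20 (SE 0.22, adjusted p = 0.604 by edgeR) in GR KO tumors. Group means ran from parental GC cultures (65.2 ± 4.63 CPM, SD, n = 2), alone at the top, to parental DMSO cultures (8.81 ± 2.74), alone at the bottom. In between, parental GC tumors (28.8 ± 3.57), GR KO GC tumors (24.4 ± 4.76), GR KO control tumors (21.8 ± 5.76), GR KO GC cultures (20.3 ± 3.92), parental control tumors (19.98 ± 5.24) and GR KO DMSO cultures (19.6 ± 0.892) each overlapped the next. Between GR KO control tumors and DMSO cultures the difference was 0.16 (SE 0.24, adjusted p = 0.601 by edgeR). Of the related ADAM proteinases none of 6 tested in cultures and 9 in parental tumors was a DEG by edgeR. In GR KO tumors 1 of 9 was lower, the neuronal adhesion protein *Adam23*, by −1.29 (SE 0.34, adjusted p = 0.0267 by edgeR).

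*Adra1b* encodes an α1-adrenergic receptor, which binds noradrenaline and adrenaline and signals through Gq. It had the largest log2 fold change of the 10 genes in parental cultures, 3.00 (SE 0.23), from 4.83 to 8.26 CPM in DMSO to 48.3 to 62.4 CPM with GC. GR KO cultures held 4.58, 4.71 and 4.92 CPM in DMSO and 5.85, 6.37 and 6.68 CPM with GC. All 3 GC cultures were above all 3 controls, as for 1 of the 10 genes and 3.62% of tested genes, but the log2 fold change of 0.44 (SE 0.22, adjusted p = 0.976 by edgeR) was far below that of parental cells, by 2.56 (SE 0.32) without a test. In GR KO tumors *Adra1b* had 3.68, 5.66, 3.25, 1.88 and 3.11 CPM in control and 5.42, 5.27, 4.65, 5.89 and 7.07 CPM with GC. All GC tumors except those numbered 4 and 5 were below control tumor 2, which made the groups overlap. The log2 fold change there was 0.71 (SE 0.41, adjusted p = 0.288 by edgeR), and in parental tumors 0.65 (SE 0.41). The means ran from parental GC cultures (55.4 ± 9.98 CPM, SD, n = 2), apart from all others, over parental DMSO cultures (6.87 ± 1.80), GR KO GC cultures (6.30 ± 0.420), GR KO GC tumors (5.66 ± 0.904), GR KO DMSO cultures (4.74 ± 0.169), GR KO control tumors (3.52 ± 1.37) and parental GC tumors (2.62 ± 1.12) to parental control tumors (1.68 ± 0.661), each overlapping the next. Control tumors and DMSO cultures of GR KO genotype differed by −0.43 (SE 0.35, adjusted p = 0.291 by edgeR).

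Among the other adrenergic receptors few had enough counts to test, 2 of 8 in cultures with no DEG by edgeR and 4 of 8 in tumors. *Adrb1*, the β1-adrenergic receptor, was higher with GC in both tumor comparisons. Its log2 fold change was 2.53 (SE 0.46, adjusted p = 0.00540 by edgeR) in parental and 2.10 (SE 0.45, adjusted p = 0.00869 by edgeR) in GR KO tumors. *Adrb1* was at 0 in all parental cultures, so its tumor signal had no counterpart in the cultured parental line.

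*Sorbs2* encodes an adaptor with a sorbin domain and SH3 domains that links the kinase Abl, Cbl and vinculin to the actin cytoskeleton. In parental cultures it had 15.9, 17.1 and 12.2 CPM in DMSO and 93.4 and 80.3 CPM with GC. The GC cultures stood well apart, with a log2 fold change of 2.52 (SE 0.17). GR KO cultures had 37.0, 36.5 and 30.9 CPM in DMSO and 29.7, 30.6 and 32.0 CPM with GC, which overlapped. All 6 GR KO cultures lay between the parental groups, the DMSO cultures 1.20 (SE 0.16) above parental DMSO on the log2 scale without a test. With GC their log2 fold change was −0.14 (SE 0.15, adjusted p = 0.976 by edgeR). In tumors it was −0.41 (SE 0.23) in parental and −0.0058 (SE 0.23, adjusted p = 0.992 by edgeR) in GR KO tumors. The sign of the last turned without control tumor 1 (0.099), GC tumor 1 (0.0075) or GC tumor 2 (0.13). GR KO control tumors were below GR KO DMSO cultures by −0.94 (SE 0.22, adjusted p = 0.000439 by edgeR).

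In the order of means *Sorbs2* was highest in parental GC cultures (86.8 ± 9.28 CPM, SD, n = 2), apart from the next. GR KO DMSO (34.8 ± 3.36) and GR KO GC cultures (30.8 ± 1.19) overlapped and stood above the tumors. Parental control tumors (25.6 ± 5.15), parental GC tumors (19.3 ± 3.11), GR KO control tumors (18.1 ± 2.86), GR KO GC tumors (17.7 ± 4.80) and parental DMSO cultures (15.1 ± 2.54) each overlapped the next. None of the 8 genes for SORBS adaptors and their partners was a DEG in any of the 4 GC comparisons by edgeR, with medians of −0.069 to 0.091.

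*Glul* encodes glutamine synthetase, which makes glutamine from glutamate and ammonia and is a textbook GC target in muscle and retina. Parental cultures had 30.9 to 37.4 CPM in DMSO and 61.7 to 74.2 CPM with GC, a log2 fold change of 1.02 (SE 0.16). In GR KO cultures *Glul* had 34.4, 33.3 and 30.9 CPM in DMSO and 23.6, 30.6 and 28.5 CPM with GC. All 3 GC cultures were below all 3 DMSO cultures, by a log2 fold change of −0.22 (SE 0.15, adjusted p = 0.976 by edgeR) that did not pass the threshold. Such an order held for 1 of the 10 genes and for 3.77% of tested genes. Tumors had more *Glul* than cultures. Parental tumors reached 99.7 to 149 CPM in control and 144 to 301 CPM with GC, with a log2 fold change of 0.86 (SE 0.20). GR KO tumors had 98.8 to 161 CPM in control and 119 to 179 CPM with GC, with 0.25 (SE 0.19, adjusted p = 0.458 by edgeR). GR KO control tumors exceeded GR KO DMSO cultures by 1.97 on the log2 scale (SE 0.22, adjusted p = 7.76e-09 by edgeR). All 4 tumor groups stood above all 4 culture groups: parental GC (225 ± 57.3 CPM, SD, n = 5), GR KO GC (149 ± 25.7), GR KO control (128 ± 26.1) and parental control tumors (124 ± 22.3) each overlapped the next. Parental GC cultures (67.9 ± 8.84) followed alone, then parental DMSO (33.3 ± 3.59) and GR KO DMSO cultures (32.9 ± 1.81), which overlapped, and GR KO GC cultures (27.6 ± 3.60), alone at the bottom.

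Other genes of glutamine and glutamate handling gave 1 DEG by edgeR in 18 tested genes over the 4 GC comparisons. *Slc1a3*, a glutamate transporter, was higher in parental tumors by 1.70 (SE 0.39, adjusted p = 0.0342 by edgeR). It had 0.30 (SE 0.38, adjusted p = 0.669 by edgeR) in GR KO tumors.

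*Fam46b*, now named *Tent5b*, belongs to a family of non-canonical poly(A) polymerases. Parental cultures had 12.9 to 14.2 CPM in DMSO and 68.5 to 89.2 CPM with GC, a log2 fold change of 2.55 (SE 0.21) that was 2.73 without GC culture 1 and 2.34 without GC culture 2. Cultures of GR KO cells had 13.1 to 15.7 CPM in DMSO and 12.2 to 18.5 CPM with GC, with 0.20 (SE 0.19, adjusted p = 0.976 by edgeR). In parental tumors *Fam46b* had the largest log2 fold change of the 10 genes, 1.61 (SE 0.28), with all GC tumors (14.2 to 24.0 CPM) above all controls (4.55 to 7.003 CPM). In GR KO tumors control (5.90 to 11.3 CPM) and GC (7.40 to 17.8 CPM) overlapped, with 0.18 (SE 0.27, adjusted p = 0.726 by edgeR), and −0.075 without GC tumor 2. *Fam46b* therefore had similar values with and without GC in both kinds of GR KO sample, while the parental minus GR KO differences were 2.35 (SE 0.28) in cultures and 1.43 (SE 0.39) in tumors, without a test. Its means put parental GC cultures (78.8 ± 14.6 CPM, SD, n = 2) apart at the top. Parental GC tumors (18.5 ± 4.04), GR KO GC (15.9 ± 3.31), GR KO DMSO (14.2 ± 1.40) and parental DMSO cultures (13.4 ± 0.753), GR KO GC (10.7 ± 4.29), GR KO control (9.63 ± 2.17) and parental control tumors (6.03 ± 1.04) each overlapped the next. Control tumors and DMSO cultures of GR KO genotype were apart by −0.56 (SE 0.26, adjusted p = 0.0711 by edgeR). Its relatives *Fam46a* and *Fam46c*, the 2 of 3 family genes with enough counts, were no DEG in any GC comparison by edgeR.

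*Phf15*, now named *Jade2*, encodes a PHD-finger protein that brings the HBO1 acetyltransferase to chromatin. Parental cultures had 64.7 to 84.5 CPM in DMSO and 132 to 155 CPM with GC, a log2 fold change of 0.94 (SE 0.19). GR KO cultures had 43.9 to 55.8 CPM in DMSO and 41.4 to 60.8 CPM with GC, with 0.038 (SE 0.17, adjusted p = 0.985 by edgeR), −0.052 without DMSO culture 2 and −0.14 without GC culture 3. *Phf15* was among the genes with a response of like size in parental cultures and parental tumors, where it had 1.21 (SE 0.26). There controls had 41.4 to 92.2 CPM and GC tumors 98.6 to 199 CPM. GR KO tumors had 48.1 to 76.8 CPM in control and 51.1 to 99.2 CPM with GC, with 0.25 (SE 0.26, adjusted p = 0.579 by edgeR). Its means fell into parental GC cultures (144 ± 16.1 CPM, SD, n = 2) and parental GC tumors (142 ± 45.5), which overlapped, and 6 groups with lower means. The highest GR KO GC tumor (99.2 CPM) was still above the lowest parental GC tumor (98.6 CPM). The 6 groups were parental DMSO cultures (74.4 ± 9.91), GR KO GC tumors (69.4 ± 21.9), parental control tumors (61.9 ± 19.9), GR KO control tumors (59.2 ± 14.02), GR KO GC (50.5 ± 9.75) and GR KO DMSO cultures (50.4 ± 6.01), each overlapping the next. The difference of *Phf15* between GR KO control tumors and DMSO cultures was 0.23 (SE 0.27, adjusted p = 0.465 by edgeR). None of 9 genes for JADE and HBO1 complexes was a DEG in any GC comparison by edgeR.

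*Rnf169* encodes a ubiquitin-binding RING protein that gathers at DNA double-strand breaks. Its values were higher with GC in tumors of both genotypes, and overlapped in both kinds of culture. GR KO tumors had 61.5, 67.2, 70.1, 47.8 and 54.0 CPM in control and 104, 125, 103, 89.9 and 82.0 CPM with GC. Every GC tumor was above every control, which held for 1 of the 10 genes and for 2.16% of tested genes. The log2 fold change was 0.77 (SE 0.19, adjusted p = 0.0205 by edgeR), a 1.71-fold difference. Leaving out GC tumor 3 gave an adjusted p of 0.0530 at a log2 fold change of 0.77. Parental tumors had 49.1, 56.1, 36.2, 56.5 and 32.3 CPM in control and 115, 123, 107, 170.4 and 119.9 CPM with GC. All GC tumors were above all controls here too, by 1.47 (SE 0.20), and the parental minus GR KO difference of 0.70 (SE 0.27) was not tested.

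In culture *Rnf169* had 32.4, 35.7 and 31.7 CPM in parental DMSO and 33.7 and 28.9 CPM in parental GC cells. GR KO cultures had 41.3, 33.2 and 43.1 CPM in DMSO and 34.1, 37.0 and 35.7 CPM with GC. Both pairs of groups overlapped, with −0.098 (SE 0.16) in parental and −0.11 (SE 0.14, adjusted p = 0.976 by edgeR) in GR KO cells. The GC effects in GR KO tumors and cultures differed by 0.89 (SE 0.27, adjusted p = 0.190 by edgeR), so that a different effect *in vivo* did not pass the test. *Rnf169* was higher in GR KO control tumors than in DMSO cultures, by 0.62 (SE 0.20, adjusted p = 0.00883 by edgeR). That call was lost without control tumor 2 (0.57) or control tumor 3 (0.56), where the fold was under 1.5, and without DMSO culture 2 (0.49, adjusted p = 0.0755 by edgeR). The order of means was parental GC tumors (127 ± 25.03 CPM, SD, n = 5) and GR KO GC tumors (101 ± 16.5), which overlapped, above the other 6 groups. GR KO control (60.1 ± 9.20) and parental control tumors (46.0 ± 11.3), GR KO DMSO (39.2 ± 5.26), GR KO GC (35.6 ± 1.43), parental DMSO (33.3 ± 2.14) and parental GC cultures (31.3 ± 3.45) each overlapped the next. None of 10 genes of ubiquitin signalling at DNA breaks was a DEG in any GC comparison by edgeR, with medians of −0.051 to 0.12.

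*M1ap* encodes a protein needed for the first meiotic division of male germ cells. Its response had opposite signs in tumors of the 2 genotypes. Parental tumors had 21.9, 21.5, 19.3, 19.7 and 22.3 CPM in control and 37.7, 42.2, 37.5, 52.2 and 31.6 CPM with GC, without overlap. GR KO tumors had 30.6, 33.4, 23.6, 21.4 and 29.9 CPM in control and 12.8, 19.6, 16.7, 22.8 and 15.6 CPM with GC. GC tumors were low except GC tumor 4, which was above control tumor 4. The log2 fold change was 0.94 (SE 0.20) in parental tumors and −0.64 (SE 0.20, adjusted p = 0.0566 by edgeR) in GR KO tumors, where all 5 GC tumors were below the mean of the controls. The second value missed the threshold and passed it in 2 of 10 fits with a tumor left out, without control tumor 4 (−0.73, adjusted p = 0.0189 by edgeR) or GC tumor 4 (−0.76, adjusted p = 0.0324 by edgeR). Over all 10 the estimate reached −0.55 and the adjusted p 0.140. DESeq2 gave −0.67 with an adjusted p of 0.0194, and edgeR with the size factors of DESeq2 gave 0.0471. The parental minus GR KO difference of 1.58 (SE 0.29) was not tested.

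In parental cultures *M1ap* had 29.1, 23.4 and 25.3 CPM in DMSO and 187 and 199 CPM with GC. In GR KO cultures the gene had 18.0, 11.9 and 18.0 CPM in DMSO and 18.4, 18.0 and 17.7 CPM with GC. The parental groups were far apart, with 2.89 (SE 0.18), and the GR KO groups overlapped, with 0.21 (SE 0.17, adjusted p = 0.976 by edgeR). GC effects in GR KO tumors and cultures differed by −0.85 (SE 0.28, adjusted p = 0.209 by edgeR), short of the threshold. *M1ap* was higher in GR KO control tumors than in DMSO cultures, by 0.80 (SE 0.20, adjusted p = 0.00118 by edgeR). *M1ap* means ran from parental GC cultures (193 ± 8.15 CPM, SD, n = 2), apart from the rest, to parental GC (40.3 ± 7.67) and GR KO control tumors (27.8 ± 5.05) and parental DMSO cultures (25.9 ± 2.91), each overlapping the next. Parental control tumors (20.9 ± 1.37) overlapped neither neighbour, and GR KO GC cultures (18.1 ± 0.349), GR KO GC tumors (17.5 ± 3.84) and GR KO DMSO cultures (15.9 ± 3.52) came last, each overlapping the next. Of 14 genes of meiotic recombination, which in most tissues are silent, 2 had enough counts to test in cultures and 3 in tumors, with no DEG by edgeR.

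**Figure D2:**
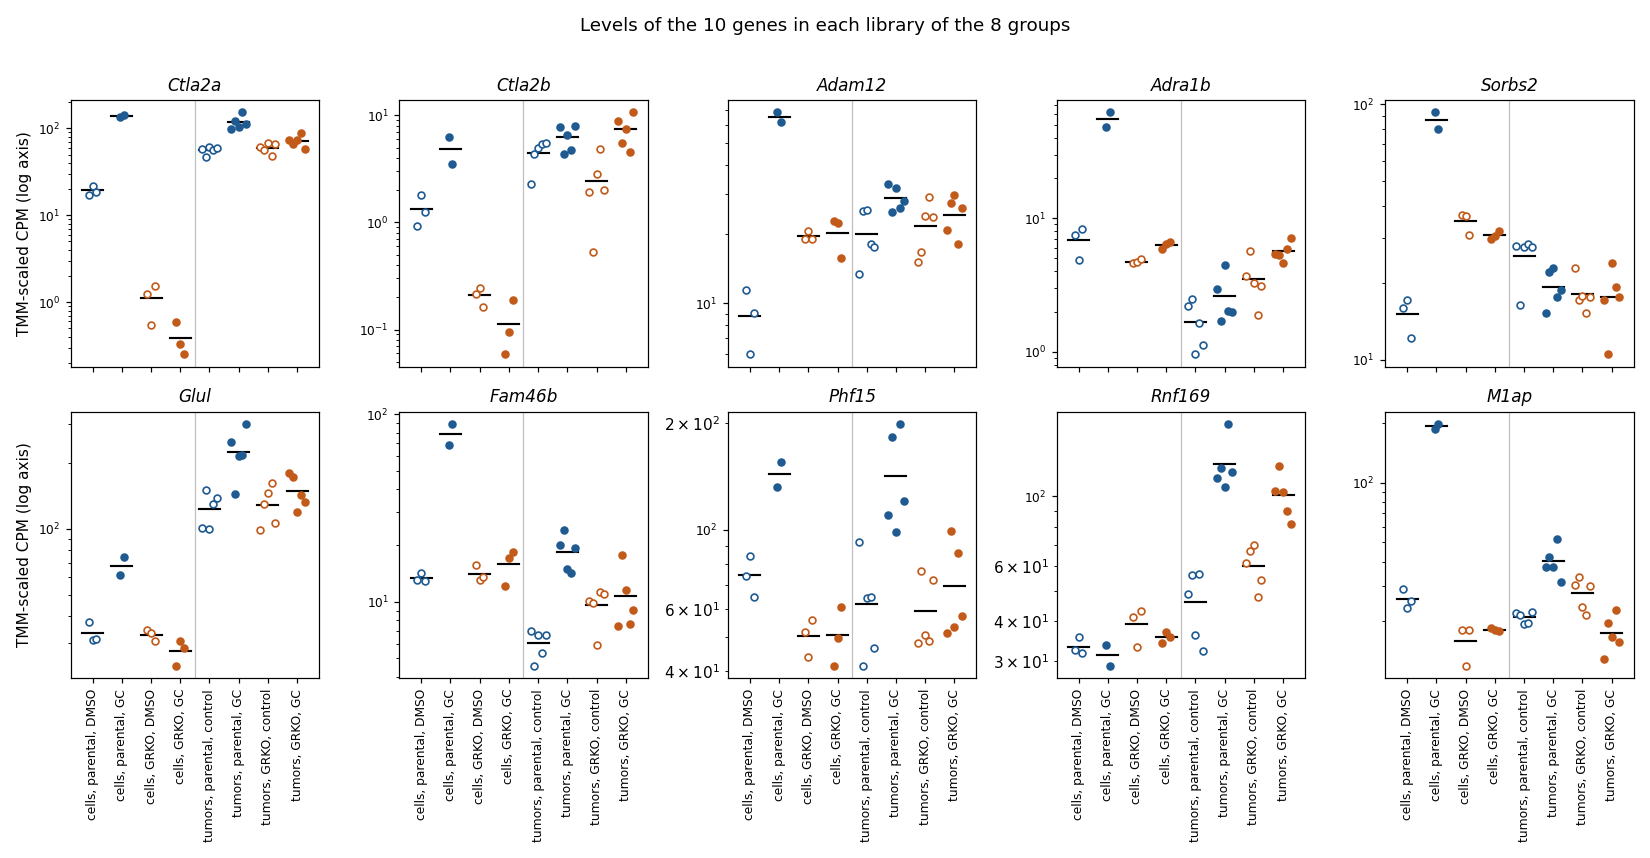
CPM (log axis) of the 10 genes in every library of the 8 groups, parental in blue and GR KO in orange, filled with GC, with lines for group means. Only *Rnf169* has every GR KO GC tumor above every GR KO control tumor.

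The comparison of GR KO control tumors with GR KO DMSO cultures summed up as 4 of 9 genes higher in tumors by edgeR, *M1ap*, *Ctla2a*, *Glul* and *Rnf169*, and 1 lower, *Sorbs2*. *Ctla2b* is left out, since it passed the filter on low counts only through other samples than these cultures. Across 16273 tested genes 34.2% were DEGs with higher and 20.6% with lower levels in tumors. Whole tumors hold host cells that cultures lack, and the part of these cells in the levels was not tested.

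Textbook GC-responsive genes served as the yardstick for the 10. In parental cultures 9 of 13 tested were higher with GC and 0 lower, with a median log2 fold change of 1.91 beside −0.00052 over all tested genes. *Mt2*, a metal-binding metallothionein, had 3.76 (SE 0.17, adjusted p = 1.58e-06 by edgeR), *Rgs2*, a brake on G-protein signalling, 3.17 (SE 0.22) and *Tsc22d3*, a leucine zipper protein, 3.09 (SE 0.20). In GR KO cultures 0 of 13 were DEGs by edgeR, with a median of −0.047 beside 0.019. In parental tumors 10 of 15 were higher, with a median of 1.73, and in GR KO tumors 7 of 15, with a median of 1.19. *Hif3a*, of the hypoxia response, had 4.38 (SE 0.91, adjusted p = 0.0229 by edgeR) in parental tumors. It is counted among the 7, but had no counts in GR KO control tumors and 0.573 ± 0.607 CPM (SD, n = 5) with GC, so no fold change is given. *Fkbp5*, a GR co-chaperone, had 2.03 (SE 0.35, adjusted p = 0.00269 by edgeR) in GR KO tumors. These genes are known GC targets, and some were read in these libraries before, so their direction is no independent evidence.

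Over the 8 group means of log2(CPM + 1), the genes with patterns most like the members were found by Pearson correlation, as a description. For *Ctla2a* these were *Gprc5b* (r = 0.989) and *Fmod* (0.981), and for *Ctla2b* *Dclk1* (0.972) and *Prss16* (0.972). *Adam12* was closest to *Aldh1a1* (0.984) and *4930522L14Rik* (0.955), and *Adra1b* to *Snora2b* (0.942) and *Sprr2k* (0.937). For *Sorbs2* they were *Ampd3* (0.933) and *Arhgap29* (0.932), and for *Glul* *Gm5345* (0.992) and *Flrt2* (0.990). *Fam46b* was closest to *Isg20* (0.960) and *Lpin3* (0.957). Only 1 gene is named for each of the other members, *Gm10701* (0.972) for *Phf15*, *Fat4* (0.989) for *Rnf169* and *Gm15552* (0.971) for *M1ap*. Among the members themselves *Ctla2a* and *Ctla2b* had the highest correlation, 0.935, and *Sorbs2* and *Rnf169* the lowest, −0.53. With 8 means that share genotypes, treatments and experiments, these values rank genes and carry no test.

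On the GRCm38 annotation the other members lie at chr7:133883199-134232146 (*Adam12*, minus strand), chr11:43774606-43901210 (*Adra1b*, minus), chr8:45507788-45827906 (*Sorbs2*, plus), chr1:153899944-153909723 (*Glul*, plus) and chr4:133480132-133487938 (*Fam46b*, plus). *Phf15* is at chr11:51813455-51857653 (minus), *Rnf169* at chr7:99920254-99980448 (minus) and *M1ap* at chr6:82946902-83030309 (plus). Some overlap other genes, and without a stated strand setting their reads cannot be told apart. *Teddm2*, antisense to *Glul*, had 7 counts in all 31 libraries, *A130023I24Rik*, on the strand of *Adam12*, had 165, and the small nucleolar RNA *Gm23604*, antisense to *Sorbs2*, had 182. Of 18 nearest genes that are not members, 13 were tested in cultures and 18 in tumors. In parental cultures 1 was a DEG, *Trnp1*, 3162 bp from *Fam46b*, with 1.41 (adjusted p = 0.00481 by edgeR), and in GR KO cultures and parental tumors 0 were by edgeR. In GR KO tumors *Il12b*, a cytokine subunit gene 498853 bp from *Adra1b*, was lower, by −4.20 (adjusted p = 0.0154 by edgeR).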

How the data were processed

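Per the labels, the authors made QuantSeq 3′ mRNA libraries, checked reads with FastQC 0.11.7 and MultiQC 1.4, trimmed them with Trim Galore 0.6.5, aligned them with STAR 2.6.1d to GRCm38 and deposited integer counts per gene from featureCounts (Ensembl release 75; strand setting not stated). No deposited sample was left out. In R 4.3.3, edgeR 4.0.16 (limma 3.58.1) fitted quasi-likelihood models with TMM factors, 1 mean per group, over the 20 tumors, the 11 cultures or all 31 libraries, for genes with at least 0.5 CPM in at least 3 samples. P-values were adjusted by Benjamini-Hochberg over all genes tested. Two-sided exact permutation tests on log2(CPM + 1), levels, patterns and sequences were computed in Python 3.11.15 (scipy 1.17.1, pandas 2.3.3, Biopython 1.88). The fits were tested on simulated data.

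Alternatives were DESeq2 1.42.0, the size factors of DESeq2 in edgeR, no filter on counts, no minimum fold change, the 2 groups alone, each sample left out, a replicate block, a pseudocount of 0.1, other level factors and a shorter promoter window. Of the deposited IDs 37607 had an entry in GENCODE M21, including all 10 members.

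Genes named were the 10 members, *Nr3c1*, up to 3 DEGs per list and comparison, the 2 nearest patterns per member (1 for 3 members, the other not reported here), DEGs among neighbours and the most abundant gene of a marker list. Other marker genes, *Fam46a*, *Fam46c* and overlapping genes were named after their values were seen. The 10 related lists held 112 genes and the 10 marker lists 57. Members and lists were chosen with earlier results of these data known. Floors cover counting error only.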

Additional observations from a re-analysis of the deposited data

Results flagged for a closer look

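Of 40 sets of 5 tumors (10 genes in 4 groups), 4 had a library far from the others, where chance gives about 1 in 20. The lowest parental control tumor for *Ctla2a* had 46.2 CPM, and the lowest for *Sorbs2*, the same tumor 2, had 16.4 CPM. For *Fam46b* the lowest GR KO control tumor had 5.90 CPM, and for *Rnf169* the highest parental GC tumor had 170.4 CPM.

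The comparisons checked were parental with GR KO tumors, parental with GR KO cultures, and tumors with cultures of each genotype. In 9 cases every GC sample of one kind lay above the mean of its controls and every GC sample of the other kind below it. The genes were chosen for higher counts with GC in parental cells or tumors, which favors parental GC samples above their controls. No share of all tested genes with such an order is given, so the 9 cases are a description only. For *M1ap* this order separated parental from GR KO tumors, with a difference of GC effects of 1.58 on the log2 scale that was not tested. Between parental and GR KO cultures it held for *Ctla2a* (4.29), *Glul* (1.24) and *Sorbs2* (2.66), and none of these differences was tested. *Ctla2b* is counted there too (2.68, not tested). Its GR KO cultures, near the floor, held 3 to 5 counts in DMSO and 1 to 3 with GC. No difference between them can be read at this depth, and nothing is drawn from this value. Between parental tumors and parental cultures it held for *Sorbs2* (−2.93), also not tested. Between GR KO tumors and GR KO cultures it held for *M1ap* (−0.85, adjusted p = 0.209) and *Rnf169* (0.89, adjusted p = 0.190). EdgeR tested both in a comparison chosen after the data were seen. *Ctla2b* is also among the 9 cases here (2.47). With the same cultures near the floor no difference can be read from its value, and no test of it is given.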

How the results depend on the processing

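For the 10 genes, 305 of the log2 fold changes under another tool, filter, scaling, block or choice of groups kept direction and, where tested, side of the threshold, 3 passed it and 1 missed it. With a library left out, 370 did so or, where untested, stayed within the spread, 2 passed, 8 missed, 4 untested ones moved beyond the spread and 6 tested ones turned sign. Those 6 were of *Phf15* in GR KO cultures (−0.14 to 0.18 over the libraries left out), *Fam46b* in GR KO tumors (−0.075 to 0.29) and *Sorbs2* in GR KO tumors (−0.12 to 0.13). The untested value of *Rnf169* in parental cultures turned sign within the spread (−0.21 to 0.0097). DEGs in GR KO tumors numbered 1756 by DESeq2, 391 with the 2 groups alone and 303 to 2411 with a tumor left out, and the 2 members called became 3 by DESeq2 or with its size factors, 1 with the 2 groups alone and 0 to 3 with a tumor left out. DEGs in parental tumors were 376 by DESeq2 and 60 to 178 with a tumor left out. In parental cultures they were 251 by DESeq2, 59 with the 2 groups alone and 31 to 78 with a culture left out, where a lone GC culture is assumed to vary like the other groups. For GR KO tumors minus cultures, DESeq2 called 185 genes and 1 member. The cause was not tested.

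Deviations of same-numbered samples correlated at a mean r of 0.0577 over 30 tumor pairs and 0.0193 over 15 culture pairs, but at 0.306 over the 2 pairs of parental cultures and at 0.0993 to 0.388 between GC tumors of the 2 genotypes, so that a shared factor is not excluded. Between GC and control of a genotype, not every sample correlated best with its own number: 4 of 10 parental tumors, 1 of 10 GR KO tumors, 3 of 4 parental and 2 of 6 GR KO cultures did. A replicate block gave 994 DEGs in GR KO tumors, 164 in parental tumors, 63 in parental cultures and 0 in GR KO cultures, and changed no call of a member. A pseudocount of 0.1 left each exact test on its side of 0.05, and other factors moved none of the 80 levels beyond the spread.

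Depth limits *Ctla2b* and *Ctla2a* in GR KO cultures. The parental GC cultures number 2, GR KO cells are clones, and the clobetasol dose in culture is given in 2 ways.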
